A study of Homo sapiens with 6 samples.

Results

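The baseline transcriptome of HCT116 cells given a control siRNA was described from 2 of the 6 arrays of the series, those of the control siRNA group. HCT116 is an established epithelial line from a human colorectal carcinoma. Both cultures were transfected for 48 h with 50 nM of the control siRNA in the lipid reagent Lipofectamine RNAiMAX. The labels call them biological replicates and state neither the sequence of the control siRNA nor whether untransfected cells were measured, so every level below is that of transfected cells. Total RNA was extracted with Trizol and converted to biotin-labelled cDNA, which was hybridised to a whole-transcript expression array. The other 4 arrays carried siRNAs directed at H19 and were not used here. Members were all transcript clusters, the gene-level units of the array, that have 1 gene symbol: 23781 of 67528 clusters, which stand for 22465 genes, 17085 of them protein-coding. They were ranked by the mean log2 signal of both arrays, and a gene with several clusters took the cluster of highest mean.

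Colon epithelium is renewed from stem cells at the base of crypts, which are kept dividing by Wnt signals acting through beta-catenin. Their daughters exit the cycle and become absorptive enterocytes, mucus-secreting goblet cells or rarer endocrine and tuft cells. The cells are held to each other by adherens junctions, desmosomes and tight junctions and to the basement membrane by integrins. Carcinoma lines keep different parts of this programme, so which lineage, adhesion, metabolic and signalling genes give a signal defines the state in which a line is studied.

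Signals were placed in 4 bands. A mean log2 signal under 5 was called background, 5 to under 7 low, 7 to under 9 moderate and 9 or more high. Of 23 rows of background probes on the array, the mean was under 5 in 21. Their median was 3.00 and they ranged from 2.12 to 5.92. The row at 2.12 had probes with 15 G or C bases and the row at 5.92 probes with 3, so the background level itself moved with probe composition. The row at 5.92 read 7.18 in replicate 1 and 4.66 in replicate 2, so its mean is poorly fixed and background reached the moderate band on replicate 1. A band describes the signal of a gene's probes. It is not a molar amount, since probes of different genes bind differently, and differences of level between genes were therefore not tested. A gene at background may be transcribed below what the probes detect, and 1842 protein-coding genes (10.8%) lay between 5 and the 5.92 of the highest background row.

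Over all genes, 11555 (51.4%) were at background, 4757 (21.2%) low, 3395 (15.1%) moderate and 2758 (12.3%) high, so 48.6% were above background. Of protein-coding genes 54.5% were above background, 32% moderate or high and 13.9% high, with a median log2 signal of 5.38. These shares are the scale for each gene list below. Of 1840 long noncoding RNA genes 83.8% were at background and 1.41% were high. Of 1040 microRNA genes 73.4% were at background and 4.62% high, and of 239 small nucleolar RNA genes 27.6% were high. Small RNA genes and pseudogenes share sequence with host genes or parent genes, and the array's probes may not separate them.

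**Figure D1:**
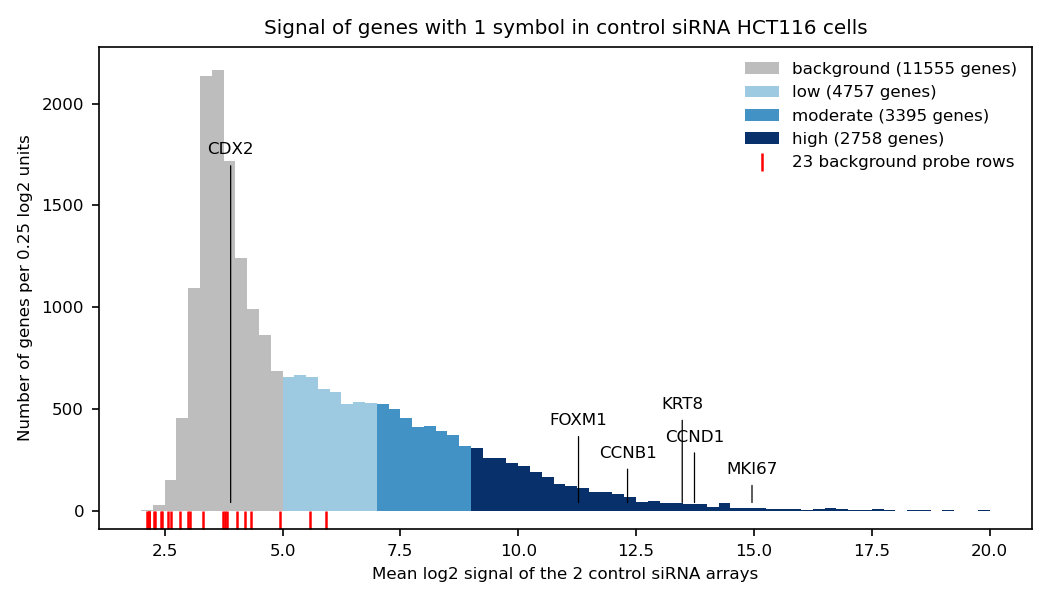
Number of genes (vertical axis) by mean log2 signal of both control siRNA arrays (horizontal axis), in bins of 0.25 log2 units, coloured by band. Red ticks are the means of the 23 background probe rows, of which 21 lie under 5. MKI67 at 14.96 and CCND1 at 13.74 lie in the high tail and CDX2 at 3.90 in the background peak.

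The arrays repeated each other closely. Pearson's r between them was 0.9968 across the 22465 genes, which are not independent replicates. The median SD per gene was 0.08 in the background band, 0.08 in the low, 0.11 in the moderate and 0.13 in the high band (n = 2 arrays). They differed by at least 1 on the log2 scale for 86 genes (0.383%), and for 71 of 10910 genes above background (0.651%). The median difference, replicate 2 minus replicate 1, was -0.17 for high genes and 0.08 for background genes. After quantile normalisation of the pair it was 0.05 and -0.01. That step gives both arrays the same distribution, so it cannot tell scaling from a real shift, which was not tested. All 35 high genes that differed by at least 1 were higher in replicate 1. Among the 9235 named protein-coding genes above background 9 differed by at least 1, each with replicate 1 higher. They include genes that respond within hours to growth factor, stress or metal signals. The stress cytokine gene GDF15 read 9.78 in replicate 1 and 8.41 in replicate 2, and the endosomal GTPase gene RHOB 9.91 and 8.60. The crypt transcription factor gene SOX9 read 12.30 and 11.04, and the metalloproteinase gene ADAM19 10.26 and 9.09. The ERK phosphatase genes read 10.63 and 9.53 for DUSP6 and 8.35 and 7.27 for DUSP4. The Notch ligand gene JAG1 read 10.21 and 9.12, the heat shock chaperone gene HSPA1A 8.15 and 7.08 and the metal-binding protein gene MT1F 10.12 and 9.08. The flow-responsive factor gene KLF2, at 7.24 and 6.25, was the next in order. After quantile normalisation replicate 1 was still higher for all 10, by -1.19 (GDF15) to -0.86 (MT1F and KLF2) as replicate 2 minus replicate 1. The 10 were picked as the most different in the same arrays, so this is no independent check. For these genes the baseline level is known to about 1 log2 unit.

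Among the 30 protein-coding genes of highest signal, the cytoplasmic actin gene ACTG1 had a mean of 19.13 and the tubulin genes TUBA1B and TUBB 17.08 and 16.80. The translation elongation factor genes EEF1A1 and EEF2 were at 18.83 and 16.53, the poly(A)-binding protein gene PABPC1 at 18.71, PAPOLA, which adds poly(A) tails, at 15.75, and EIF4G2, a translation initiation factor gene, at 16.25. The ribosomal protein genes RPS28, RPS16 and RPS15 were at 16.69, 16.43 and 15.74. The cytosolic HSP90 chaperone genes HSP90AB1 and HSP90AA1 read 17.68 and 16.65. The histone genes H2AC20 and H1-4 read 17.42 and 16.32. Of cell metabolism, the glycolytic gene GAPDH read 16.65, the ATP synthase gene ATP5F1B 16.21, the peroxidase gene PRDX1 16.59, the ferritin gene FTL 16.39, the zinc- and copper-binding metallothionein gene MT2A 16.99 and the fatty acid desaturase gene SCD 15.83. The amino acid transporter gene SLC38A2 read 17.71 and 17.51. The membrane-to-actin linker gene EZR read 16.24 and 15.96, the giant cadherin gene FAT1 had a mean of 16.67, and KITLG, which encodes the ligand of the receptor KIT, read 15.90 and 15.97. The nuclear import gene KPNA2 was at 16.74, the late endosome GTPase gene RAB7A at 16.52 and PA2G4, a gene of growth control and ribosome assembly, at 15.89. ACTG1, H2AC20, TUBB and NPIPB4 (16.76) belong to families with near-identical copies, whose probes may share signal. SLC44A4, a choline transporter gene, ranks in this group at 19.08 through 1 of its 8 clusters, which lies on an alternate haplotype. The other 7 clusters read 3.82 to 3.89, so its place rests on that cluster alone.

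The cells carried the signal of dividing cells. All 14 measured proliferation genes were above background and 13 were high, with a median of 10.74. MKI67, whose protein coats mitotic chromosomes, read 15.07 and 14.85. The G1 cyclin gene CCND1 read 14.07 and 13.40, and the mitotic cyclin gene CCNB1 12.55 and 12.09. FOXM1, a transcription factor of mitotic genes, read 11.37 and 11.19. The mitotic kinase gene PLK1 was at 13.25, the topoisomerase gene TOP2A at 12.09, and the thymidylate and deoxynucleotide synthesis genes TYMS and RRM2 at 10.75 and 10.73. The replication clamp gene PCNA read 10.71 and the helicase gene MCM7 9.90, while MCM2, another subunit of that helicase, read 7.58 and 7.44 in the moderate band. Of 35 measured replication-dependent histone genes 9 were high and 16 at background (54.3% above, against 54.5% over all protein-coding genes). The histone genes differ little in sequence, and their probes may share signal.

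Markers of other cell types were nearly all at background. Of 47 measured markers of fibroblasts, endothelium, blood cells, neurons, hepatocytes, muscle and melanocytes, 44 were at background, with a median of 3.71. Summed over the list, their log2 signals were 179.4 in replicate 1 and 182.6 in replicate 2. The 3 above 5 were the lysosomal protein gene CD68 at 6.83, the skeletal actin gene ACTA1 at 6.74 and the glutamate decarboxylase gene GAD1 at 5.11. None was moderate or high. The other macrophage markers CD14 (3.11), CD163 (3.62) and CSF1R (3.90) were at background.

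Of 8 measured simple epithelial keratins and EPCAM 4 were high, 2 low and 2 at background. KRT8 read 13.64 and 13.31, KRT18, its filament partner, 12.20 and 11.97, and KRT19 11.55 and 10.93. EPCAM, the epithelial cell adhesion molecule gene, read 11.37 and 11.26. KRT7 and KRT23 were low at 5.76 and 6.21, and KRT20, a keratin of differentiated intestinal cells, was at background at 3.34 and 3.42. Of 48 measured keratin genes 41 were at background. Of 9 keratins of stratified epithelium only KRT10 passed 5, at 5.47, and KRT5 and KRT14 of basal layers read 3.95 and 3.81. KRT8 has 2 clusters, the other at 10.37, which is also high.

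Transcription factors of the intestinal lineage gave a mixed picture in which the defining caudal factors were at background. Of 23 listed factors 19 were measured, and HNF4A is not among them. Of these 19, 9 (47.4%) were above 5, against 54.5% over all protein-coding genes. SOX9 of the crypt base was high at 12.30 and 11.04. KLF5 of dividing crypt cells read 8.49 and 8.70, the epithelial factor gene EHF 7.54 and 7.31, and the Notch target gene HES1 7.39 and 6.73. GATA6 was low at 5.85, as were KLF4 (5.74), which acts in differentiated cells, and HNF4G (5.47). CDX2, the master regulator of intestinal identity, read 4.05 and 3.75, and its paralog CDX1 3.76 and 3.82. GATA4 (4.19), GATA5 (4.36), FOXA1 (4.32), FOXA2 (4.58) and ATOH1 (3.68), the secretory lineage factor gene, were at background too. Both arrays put each of these under 5.

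Products of differentiated intestinal cells were at background almost throughout. Of 22 enterocyte genes 21 were under 5, the exception being the carbonic anhydrase gene CA2 at 5.44 and 5.61. The brush border gene VIL1 read 3.38 and 3.48 and the intestinal cadherin gene CDH17 3.36 and 3.50. The fatty acid binding protein gene FABP1 had a mean of 3.57, the sucrase-isomaltase gene SI 3.35 and the chloride exchanger gene SLC26A3 3.41. All 12 goblet cell genes were at background, MUC2 of the mucus gel at 4.28 and the goblet factor gene SPDEF at 4.48 among them. All 13 genes of endocrine, Paneth and tuft cells were at background, CHGA at 4.03 and LYZ at 3.73. Of 17 mucin genes 3 passed 5, and the highest, MUC21, was at 5.47.

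Genes linked to crypt stem cells were split between the bands. Of 14 measured, 8 (57.1%) were above background, near the 54.5% over all protein-coding genes. CD44, the hyaluronan receptor gene, read 14.92 and 14.49, with a second cluster at 11.95. RNF43, a ligase gene that removes Wnt receptors from the membrane, read 11.19 and 10.59, and PROM1, which encodes CD133, 6.99 and 7.14. AXIN2 was low at 6.75 and 6.51. LGR5, the receptor gene that marks cycling stem cells, read 3.49 and 3.65, ASCL2, a stem cell factor gene, 3.55 and 3.67, and OLFM4 3.39 and 3.43. Among 15 surface antigens used as colorectal carcinoma targets or markers 10 were at background, with CEACAM5, the carcinoembryonic antigen gene, at 3.52 and GPA33 at 3.67.

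**Figure D2:**
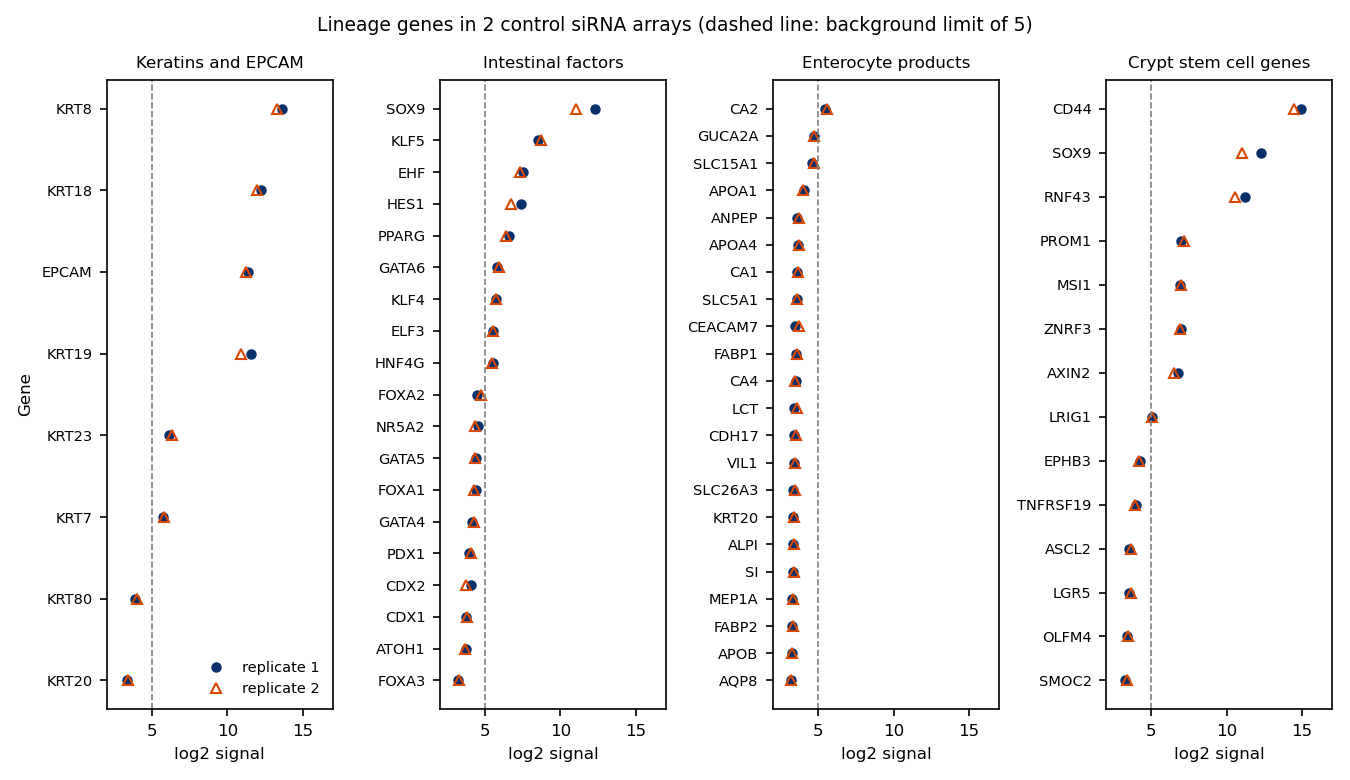
Log2 signal (horizontal axis) of each measured member (vertical axis) of 4 lineage lists in control siRNA replicate 1 (filled circles) and replicate 2 (open triangles), with the background limit of 5 as a dashed line. KRT8, KRT18, EPCAM, KRT19, SOX9, CD44 and RNF43 lie far to the right, while of the enterocyte genes CA2 alone passes the limit. The gap between the symbols of SOX9, at 12.30 and 11.04, is the widest shown.

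Of 10 cadherins measured 3 passed 5. The P-cadherin gene CDH3 was high at 10.30 and 10.02. The E-cadherin gene CDH1 was at 6.81 ± 0.27 (SD, n = 2), at the top of the low band, and CDH24 had a mean of 6.02. N-cadherin (CDH2), the form of mesenchymal cells and neurons, read 3.42 and 3.60. In the layer that joins cadherins to actin and in the nectins, 8 of 11 members (72.7%) were above background. CTNNB1 read 9.36 and 9.15, CTNNA1 9.55 and 9.40 and the vinculin gene VCL had a mean of 10.65. NECTIN3, an immunoglobulin-like adhesion gene, read 11.73 and 11.74, while NECTIN4 was at 3.52. The neural and heart forms of alpha-catenin, CTNNA2 (3.52) and CTNNA3 (3.47), were at background.

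Of 14 desmosomal genes 9 (64.3%) were above background. DSP, which ties keratin filaments to the junction, read 12.45 and 12.21. The desmosomal cadherin genes DSG2 and DSC2 read 12.40 and 12.12, and 11.29 and 10.48. Their epidermal paralogs DSG1 (3.19), DSG3 (3.52) and DSC1 (3.66) were at background, whereas DSC3 was moderate at 8.04. Of 16 tight junction genes 9 (56.2%) were above background, near the 54.5% over all protein-coding genes. The scaffold gene TJP1 read 11.40 and 11.14, the occludin gene OCLN 9.64 and 9.49 and MARVELD2, which encodes the tricellular protein tricellulin, 9.25 on average. Among claudins, which set the selectivity of the seal, CLDN7 read 9.64 and 9.36, CLDN4 8.58 and 8.36 and CLDN3 6.74 and 6.69, with CLDN1 and CLDN2 at 3.73 and 3.78. Of 24 claudin genes 20 were at background.

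Of 26 integrin genes 8 (30.8%) were above background, and they include the chains of laminin and collagen receptors of epithelium. The shared beta chain gene ITGB1 read 14.26 and 13.82 in its highest cluster, but its other clusters were at 2.99 and 4.54. The laminin receptor chains ITGA6, ITGA3 and ITGB4 were at 10.47, 8.72 and 7.88, the collagen receptor chain ITGA2 at 9.09, the fibronectin receptor chain ITGA5 at 8.40 and ITGAV at 8.98. ITGB5 read 7.28 and 6.72, on both sides of the moderate limit. Leukocyte chains such as ITGB2 (4.00), ITGAL (3.64) and ITGAM (3.68), and ITGB6 (3.40), were at background. Inside the cell 16 of 17 focal adhesion and actin linker genes were above background, with ACTN4 at 15.10 and 14.62, MSN at 12.19 and RDX at 11.60. The exception was FERMT3 (3.74), the kindlin of blood cells.

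Matrix and mesenchymal genes were mostly low or at background. Of 19 basement membrane and matrix genes 7 (36.8%) passed 5, the laminin chain genes LAMC1 at 8.41 and LAMB1 at 7.45 among them. The fibronectin gene FN1 read 5.14 and 5.32. Of 41 collagen genes 37 were at background, and COL12A1, a collagen that sits on the surface of fibrils, was the only high member at 9.50 and 9.29. Of 22 matrix metalloproteinase genes 20 were at background, with MMP7, an epithelial member, at 3.60. The intermediate filament gene VIM of mesenchymal cells read 4.49 and 4.19. The receptor kinase gene AXL, at 8.28 and 7.92, and the repressor gene ZEB1, at 7.01 and 6.83, were the highest of 13 mesenchymal genes, of which 8 were at background.

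**Figure D3:**
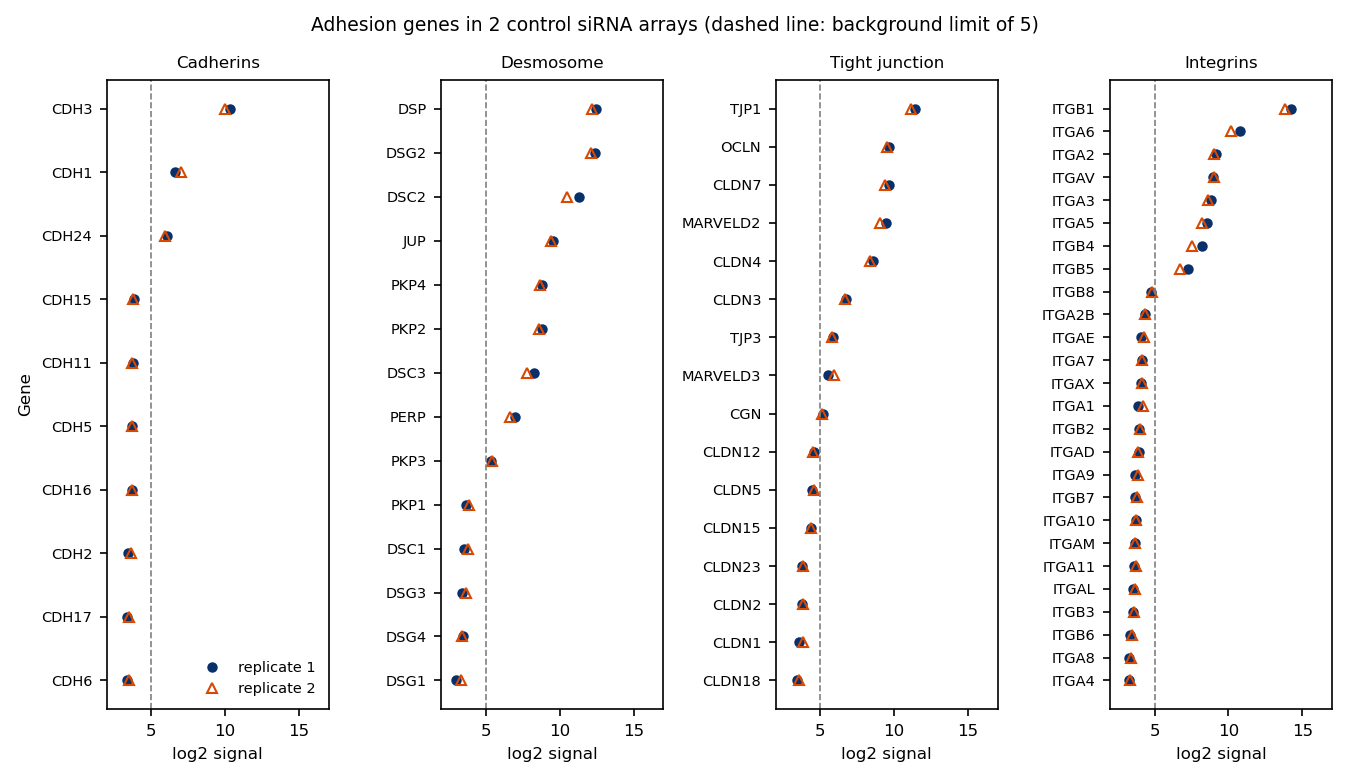
Log2 signal (horizontal axis) of each measured cadherin, desmosomal, tight junction and integrin gene (vertical axis) in control siRNA replicate 1 (filled circles) and replicate 2 (open triangles), with the background limit of 5 as a dashed line. CDH3 at 10.16, DSP at 12.33, TJP1 at 11.27 and ITGB1 at 14.04 head their lists, and each list has members at background.

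The main isoforms of central carbon metabolism gave signal throughout. Main and tissue-restricted isoforms were listed with earlier results of these data known, so the contrast between them is descriptive only. All 15 main glycolytic genes were above background, 9 of them high, and the list median was 11.44. ENO1 read 14.33 and 14.25, the pyruvate kinase gene PKM 13.64 and 13.40, and the lactate dehydrogenase genes LDHA and LDHB 12.37 and 12.24, and 13.38 and 13.35. ALDOA, the aldolase of most tissues, was low at 6.60 and 6.50. Of 9 isoforms restricted to other tissues 6 were at background, with the liver pyruvate kinase gene PKLR at 3.68 and the muscle mutase gene PGAM2 at 3.43, while the neuronal enolase gene ENO2 read 7.41 and 7.28. SLC2A1, the glucose transporter of dividing cells, read 12.16 and 11.60, and SLC2A2 of liver, kidney and absorptive gut cells 3.20 and 3.45. Of 6 gluconeogenic genes only PCK2, the mitochondrial carboxykinase gene, passed 5 at 5.12, and PCK1 (3.76) and FBP1 (3.14) did not.

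All 18 measured citrate cycle genes were above background, from the citrate synthase gene CS at 11.43 to IDH2 at 6.38. All 18 ATP synthase genes and 30 of 31 complex I genes were above background as well, 7 and 4 of them high. In cytochrome oxidase, where tissue forms of a subunit exist, 10 of 14 genes (71.4%) were above background and the 4 at background were tissue forms. COX8A read 15.41 and 15.03 against 3.86 on average for the testis form COX8C. COX6A1 read 13.88 and 13.41, and the heart and muscle form COX6A2 4.37 and 4.29. COX4I1 read 11.77 and 11.69, and the lung form COX4I2 3.65 and 4.08. COX7A2 read 9.55 and 9.32, and COX7A1 of muscle 3.41 and 3.55. In each pair the probes differ, so the values give bands and not ratios of protein.

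Biosynthetic genes gave signal broadly. All 18 measured genes of serine, one-carbon and nucleotide synthesis passed, with the serine enzyme gene PSAT1 at 13.28 and 13.22, the mitochondrial folate enzyme gene MTHFD2 at 12.57 and 12.35 and PHGDH, which opens the serine pathway, at 6.80 and 6.66. All 12 genes of fatty acid and cholesterol synthesis passed, with SCD at 15.94 and 15.71, ACLY, which makes cytosolic acetyl-CoA, at 12.10 and the synthase gene FASN at 11.88 and 11.50. All 12 glutamine and amino acid genes passed, with the exchanger genes SLC7A5 at 13.77 and SLC7A11 at 10.97. Of 15 genes of fatty acid oxidation and ketone synthesis 10 did, with the long-chain dehydrogenase gene ACADL (3.43) and the coactivator gene PPARGC1A (3.30) at background. ODC1, the entry to polyamine synthesis, read 15.27 and 15.18. CPS1, a urea cycle gene of liver and small intestine, read 8.42 and 8.22, while OTC (3.28) and ARG1 (3.89) were at background.

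Of 26 antioxidant and detoxification genes 15 (57.7%) were above background, near the 54.5% over all protein-coding genes. The thioredoxin and peroxiredoxin genes TXN (14.77), PRDX1 (16.59), PRDX3 (14.85) and PRDX6 (11.27) and the glutathione genes GSTP1 (12.16), GPX4 (12.13) and GSR (11.85) were high, as was the quinone reductase gene NQO1 at 13.67 and 13.72. ALDH1A3, a retinal dehydrogenase gene, read 10.91 and 10.69, while ALDH1A1, another retinal dehydrogenase gene, read 3.39 and 3.36. GPX2 of the gut (4.21), GSTA1 (3.28), GSTM1 (4.36), GSTM3 (2.99) and the 4 aldo-keto reductase genes AKR1B10, AKR1C1, AKR1C2 and AKR1C3 (3.39 to 3.92) were at background. All 10 metallothionein genes passed 5, from MT1G at 5.42 to MT2A at 16.99, but they are alike in sequence and their probes may share signal. Of 18 drug metabolism and export genes 11 were at background. The exporter gene ABCC2 read 10.14 and 10.98 and CYP24A1, which degrades vitamin D, 10.06 and 10.21. The exporter gene ABCB1 read 4.04 and 4.10, CYP3A4, the major drug-oxidising enzyme of liver and gut, 3.60 and 3.65, and all 10 UDP-glucuronosyltransferase genes were at background.

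Most Wnt ligands were at background, and most Wnt receptors and cytoplasmic components were above it. Of 28 ligands and secreted inhibitors 4 (14.3%) were above background. They were WNT16 at 9.12 and 8.51, the inhibitor gene DKK1 at 8.82 and 8.63, WNT9A at 5.27 and WNT10B at 5.21. Of 22 receptors and cytoplasmic components 18 (81.8%) were above background, with the nuclear partner of beta-catenin TCF7L2 at 12.85 and 12.77, the kinase genes CSNK1A1 and GSK3B at 11.64 and 10.71, the receptor gene FZD6 at 10.02 and 9.66 and the scaffold gene APC at 8.51. LEF1, another nuclear partner, read 3.55 and 3.63. Of 16 reported beta-catenin targets 11 (68.8%) were above background, and they include CD44, CCND1, SOX9, RNF43, MYC (10.07 and 9.60) and BMP4 (9.77 and 9.30). SP5 (3.35), LEF1, LGR5, ASCL2 and APCDD1 (3.93) were the 5 at background.

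Of 31 receptor tyrosine kinase genes 17 (54.8%) were above background, close to the 54.5% over all protein-coding genes. MET, the receptor gene for hepatocyte growth factor, read 12.27 and 12.12 and RYK, a Wnt co-receptor gene, 11.27 and 10.90, the 2 high members. EGFR was moderate at 8.67 and 8.30, and KIT (3.09) and PDGFRA (3.34) were at background. Of 10 EGF-family ligands EREG, the epiregulin gene, was high at 15.83 and 15.31, TGFA and HBEGF were low at 6.59 and 5.44, and EGF itself was at 3.63. In the RAS to ERK cascade 17 of 18 members were above background, with the phosphatase gene PTPN11 at 13.36 and 13.50 and the kinase gene MAP2K1 at 9.03. The feedback inhibitor genes DUSP6 and SPRY4 were at 10.08 and 8.99, whereas SPRY1 was at background at 4.11. Of 17 genes of the PI3K, AKT and mTOR route 14 (82.4%) were above background, with RPS6KB1 at 10.45, PIK3CB at 9.66 and AKT1 at 8.67, and the leukocyte kinase genes PIK3CD and PIK3CG at 4.86 and 3.69.

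In TGF-beta and BMP signalling 15 of 27 (55.6%) were above background, near the 54.5% over all protein-coding genes. The signal transducers SMAD2 (10.28) and SMAD4 (10.25) were high, and the receptor gene TGFBR2 read 9.11 and 8.96, at the edge of the high band. The inhibitory genes SMAD6 and SMAD7 were at 3.86 and 3.53 and BMP2 at 3.04. In Notch signalling 11 of 16 (68.8%) were above background. JAG1 was the only high member, the receptor gene NOTCH2 read 9.06 and 8.74, and DLL1, DLL3 and DLL4 were at background (3.42 to 4.23). In Hedgehog signalling 7 of 10 were at background, the ligand genes SHH, IHH and DHH among them (3.18 to 3.87). Of 21 cytokine and interferon receptors 13 (61.9%) passed, with IFNAR1 at 9.88 and 9.84 and the death receptor genes TNFRSF10A and TNFRSF10B at 8.83 and 8.78, while the lymphocyte receptor genes IL2RA (3.45) and IL7R (3.46) did not. Of 19 nuclear receptors 11 (57.9%) passed, also near that 54.5%, and none was high. PPARD read 8.25 and 8.05 and the vitamin D receptor gene VDR 5.66 and 5.76, and the steroid receptor genes ESR1 (3.60) and PGR (3.03) were at background.

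Secreted immune factors were mostly at background. Of 38 chemokine genes 37 were at background, and CXCL16, a membrane-bound chemokine, read 7.88 and 7.75. Of 37 interleukin genes 35 were at background, with IL18, an epithelial interleukin stored as a precursor, at 10.32 and 10.20. In antigen presentation the class I light chain gene B2M was at 10.57 and 10.38 and TAPBP at 9.06. HLA-C and HLA-B were moderate at 8.48 and 7.88, and TAP1 and TAP2, the peptide transporter genes, were low at 5.74 and 5.92. The immunoproteasome gene PSMB8 (3.66) and the class II genes CD74 (3.91) and CIITA (3.64) were at background. HLA genes share sequence and have clusters on several haplotypes. HLA-DRB1, low at 5.72, was at 4.46 without the clusters on alternate haplotypes.

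All 15 measured tumour suppressor and p53 axis genes and all 7 mismatch repair genes were above background, which says nothing about whether their products are intact. MDM2, which degrades p53, read 12.44 and 11.98, RB1 11.31 and 10.97 and the CDK inhibitor gene CDKN1A 7.90 ± 0.15 (SD, n = 2). The repair genes PMS2, EXO1 and MSH6 were at 9.33, 9.16 and 7.98, and MLH3 was low at 5.95. Of 21 genes often methylated in colorectal cancer 18 were at background, with MGMT at 3.97 and 3.89, SFRP1 at 3.64 and 3.76 and SOCS1 at 2.85. Methylation was not measured here. SEPTIN9 (7.33), CDKN2A (6.10) and RUNX3 (5.74) passed. Of 10 oncofetal genes the RNA-binding protein genes IGF2BP2 and IGF2BP3 and the chromatin gene HMGA2 were high, at 11.32, 10.45 and 10.65, and LIN28B was at 3.16 and 3.11. Of 11 cancer-testis genes MAGEB2, on the X chromosome, was high at 11.56 and 11.13. MAGEA3 and MAGEA6, near-identical copies, read 7.09 and 7.03 and PRAME 6.33.

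Gene families defined by symbol ranged from fully above to almost wholly at background. The 19 cytosolic aminoacyl-tRNA synthetase genes were all above background and 15 were high. Of 57 cytosolic ribosomal protein genes 51 (89.5%) were above background and 38 high. Of 74 mitochondrial ribosomal protein genes 72 (97.3%) passed and 21 were high. Of 16 hnRNP genes, which package nuclear RNA, 15 were high, as were 7 of 8 genes of the CCT chaperonin, with the testis form CCT6B at 4.32. Zinc finger ZNF genes, the largest family at 479, were above background for 294 (61.4%) but high for 23 (4.8%). KLF genes passed for 12 of 17, SOX genes for 4 of 19 and forkhead genes for 10 of 42. In the SOX family SOX9 and SOX4, at 11.67 and 11.62, were the high members. At the other end 345 of 358 olfactory receptor genes, 74 of 86 keratin-associated protein genes and 25 of 26 clustered protocadherin genes were at background.

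**Figure D4:**
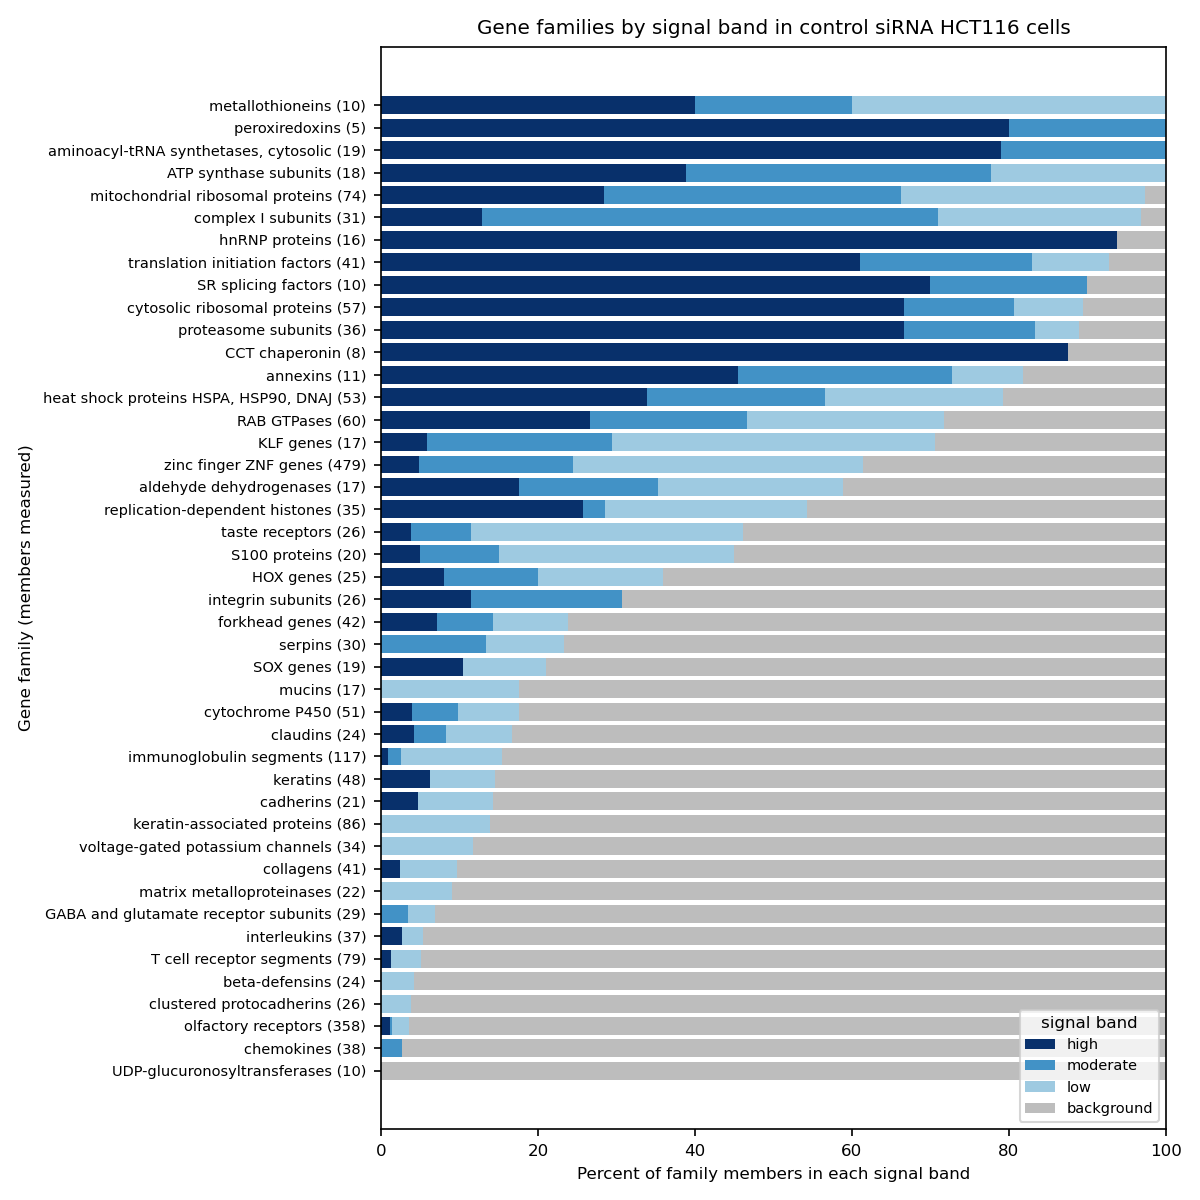
Percent of measured members (horizontal axis) in each signal band for 44 gene families (vertical axis, members measured in brackets), ordered by the share above background. Families of translation, splicing and energy metabolism are filled by the blue bands at the top, while olfactory receptors (345 of 358 at background) and UDP-glucuronosyltransferases (10 of 10) are grey.

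Promoter sequence was not used by the ranking. RefSeq windows from 250 bases before to 50 after the gene start (GRCh38.p14) were matched by symbol to 13886 of 17085 protein-coding genes (81.3%). The ratio of observed to expected CpG was computed for each window, and a window with a ratio of at least 0.6 was called CpG-dense. CpG islands of this kind mark promoters of widely expressed genes, and tissue-restricted genes often lack them. Windows were CpG-dense for 80.2% of low genes (n = 3180, 95% Wilson interval 78.7 to 81.5), 89.6% of moderate genes (n = 2617, 88.4 to 90.7) and 92% of high genes (n = 2030, 90.7 to 93.1), against 67.4% over all 13886. For background genes the value was 42.8% (n = 6059, 41.5 to 44), but only 77.9% of them had a window, and the check is void for that band since under 80% of its genes have a value. If none of the background genes without a window were dense the share would be 33.3%, and if all were, 55.4%. The same limits are 66.4% to 83.6% for low, 76.1% to 91.2% for moderate and 78.4% to 93.2% for high genes, so the range of the background band lies under those of the other bands, which overlap one another. The intervals cover counting error over genes, which are not independent. Probe composition also sets part of the array background, and its part in this pattern was not tested. Only the window at the RefSeq gene start was taken for each gene, and which start these cells use was not measured.

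Short motifs were searched on both strands of these windows. TATAAA, the core of the TATA box, was in 14.4% of background, 5.53% of low, 4.59% of moderate and 5.76% of high windows, and in 9.25% of all. GGGCGG, the GC box bound by SP1, was in 44%, 70.9%, 73.9% and 72.5%, and in 59.9% of all. CCAAT was in 34.7%, 36.1%, 38.2% and 39.8%, and in 36.4% of all. With the genes without a window counted as all lacking or all holding the letters, GGGCGG would be in 34.2% to 56.4% of background genes and 58.7% to 75.9% of low, 62.7% to 77.8% of moderate and 61.8% to 76.6% of high genes. The same limits for TATAAA, 11.2% to 33.3% at background and 4.91% to 19.7% for high genes, overlap, as do those for CCAAT, so these data fix no order for either motif. A match is a string of letters and not a tested site, and GGGCGG itself contains a CpG.

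The 250 bases before the RefSeq gene start are shown for 4 genes, 2 high and 2 at background. They were chosen after their values were seen, as examples of windows rich or poor in CG. A window poor in CG, as for KRT8, may lie away from the start used in these cells. The examples therefore do not show how CpG density at the start in use relates to signal. Capitals mark each CG. All are from RefSeq on GRCh38.p14, on the minus strand, printed 5′ to 3′. MKI67 (chr10:128126424-128126673) is high and holds 30 CG, KRT8 (chr12:52926470-52926719) is high and holds 1. CDX2 (chr13:27969316-27969565) is at background and holds 10, and FABP1 (chr2:88128063-88128312) is at background, holds 4 and contains the TATA box letters.
MKI67: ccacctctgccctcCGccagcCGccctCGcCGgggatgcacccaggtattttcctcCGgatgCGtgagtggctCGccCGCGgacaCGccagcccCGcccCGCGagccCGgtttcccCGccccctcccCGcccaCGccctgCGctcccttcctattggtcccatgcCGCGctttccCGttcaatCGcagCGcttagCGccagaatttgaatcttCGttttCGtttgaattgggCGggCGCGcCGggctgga
KRT8: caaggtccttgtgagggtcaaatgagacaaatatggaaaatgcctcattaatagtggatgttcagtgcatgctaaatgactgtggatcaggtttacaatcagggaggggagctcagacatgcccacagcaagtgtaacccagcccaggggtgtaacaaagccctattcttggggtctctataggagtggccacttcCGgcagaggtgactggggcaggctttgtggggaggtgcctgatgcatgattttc
CDX2: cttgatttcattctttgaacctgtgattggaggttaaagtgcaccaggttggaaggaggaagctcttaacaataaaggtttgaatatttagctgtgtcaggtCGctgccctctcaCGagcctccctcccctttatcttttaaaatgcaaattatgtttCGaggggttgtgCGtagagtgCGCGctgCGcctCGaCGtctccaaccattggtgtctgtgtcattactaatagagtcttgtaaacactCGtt
FABP1: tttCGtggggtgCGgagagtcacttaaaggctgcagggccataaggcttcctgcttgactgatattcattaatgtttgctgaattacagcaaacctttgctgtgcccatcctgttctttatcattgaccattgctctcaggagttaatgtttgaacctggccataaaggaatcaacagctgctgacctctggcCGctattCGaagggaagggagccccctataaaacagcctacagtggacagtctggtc

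Over the whole window the CpG ratio was 1.00 for MKI67, 0.11 for KRT8, 0.84 for CDX2 and 0.37 for FABP1. Lists varied in the same measure. All 10 proliferation genes with a window were CpG-dense (median ratio 0.93), as were all 7 mismatch repair genes (median 0.99). Of 13 enterocyte genes with a window 2 were dense (median 0.27), and all 13 are at background. Of 12 intestinal factors with a window 8 were dense (median 0.82), 4 of the 5 at background among them. Of 21 Wnt ligand and inhibitor genes with a window 17 were dense, 14 of the 18 at background among them. The 11 drug metabolism genes with a window had 1 dense member (median 0.10), and ABCC2, high at 10.56, had a ratio of 0.07. RNF43 (10.89) and KLF5 (8.60) likewise had ratios of 0.25 and 0.33. Whether these windows lie at the starts used in these cells was not tested.

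**Figure D5:**
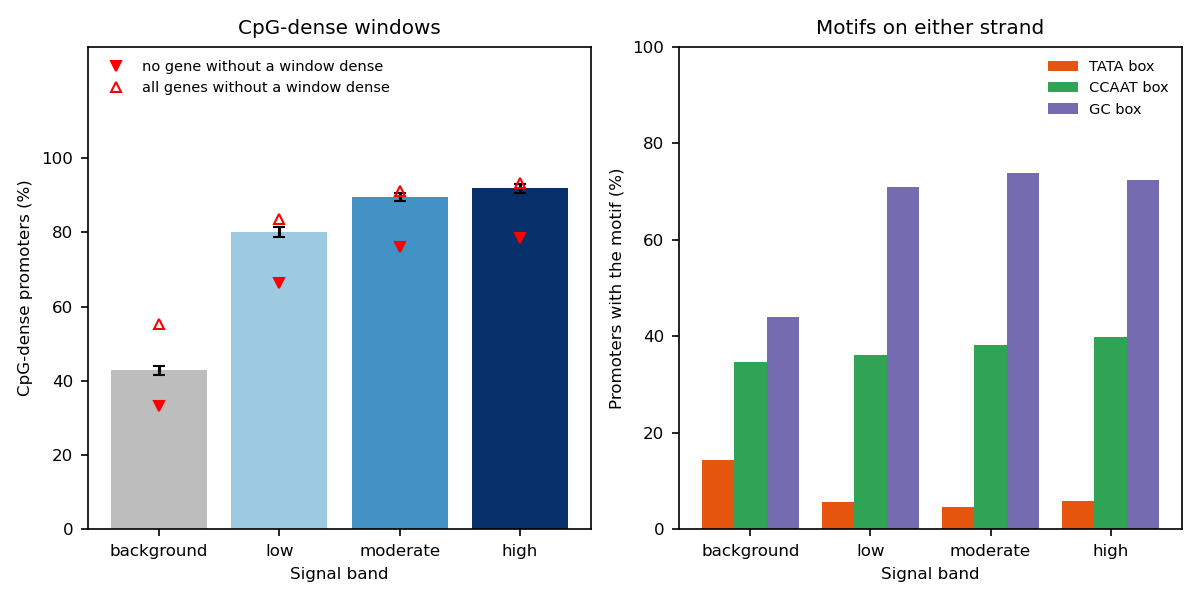
Left, percent of RefSeq promoter windows of protein-coding genes that are CpG-dense (vertical axis) by signal band, with 95% Wilson intervals, and red triangles for the share if none (filled) or all (open) of the genes without a window were dense. Right, percent of windows with the TATA, CCAAT or GC box letters on either strand. The red limits of CpG density at background, 33.3% to 55.4%, lie under those of the other bands. The background bars rest on 77.9% of that band's genes and are no estimate for the whole band.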

How the data were processed

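Expression was measured on arrays of HCT116 cells given a control siRNA (n = 2), and groups and replicate numbers came from the sample titles. The deposited values are log2 signals. Per the submitters' processing notes the tools were Affymetrix Expression Console and the RMA method. RMA corrects background, normalises arrays to each other and summarises probes. No version, other setting or genome build was stated there. There were 70523 rows in the table, of which 2995 are not transcript clusters. Of the clusters 23781 had 1 gene symbol, 1543 several and 42204 none in the platform annotation. Array medians over clusters were 4.10 and 4.17. RefSeq gave gene classes and promoter windows, and 310 clusters with 1 symbol had no RefSeq match.

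Means, SDs over both arrays, bands, counts per list and family, and motif counts were computed in Python 3.11.15 with pandas 2.3.3, numpy 2.4.6 and scipy 1.17.1, and tested on simulated data. There is 1 group, so no test between groups was made, and the number of arrays limits the precision. Genes were named as the 30 of highest signal, members of 59 lists and 44 families, cell type markers and the 10 genes whose arrays differ most. The lists and members were chosen with earlier results of these data known. Of 858 listed genes 86 were not analysed here. Promoter shares are given for protein-coding genes, since over all gene classes, the setting first planned, 67.9% of 22465 genes had a window and that check is void. Alternatives were each array alone, other normalisations, other background limits, the median of a gene's clusters and, chosen after seeing the data, leaving out clusters on alternate haplotypes.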

Additional observations from a re-analysis of the deposited data

How the results depend on the processing

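With either array alone the bands held 11540 to 11555 (background), 4650 to 4865 (low), 3389 to 3426 (moderate) and 2656 to 2849 (high) genes, and 1103 to 1117 of 1138 named genes stayed in their band. CDH1 reached the moderate band in replicate 2 alone, and HES1 was low there at 6.73. Of 772 list members 421 were above background, 420 with either array alone, and of 2247 family members 884 (883 to 886). A background limit of 4 gave 520 and 1243 and 8517 low genes, and a limit of 6 gave 346 and 705 and 2174 low genes. With the limit at 4, 20 lists and 21 families moved clearly, and at 6, 15 and 10. The low band and lists with most members at background thus turn on the limit chosen. Requiring both arrays to reach 5 gave 418 and 868. Median centring kept all 1138 named genes in their bands and quantile normalisation 1135. Quantile normalisation lowered the share of genes differing by at least 1 to 0.118% of moderate and 0.653% of high genes. The median of a gene's clusters kept 1129 in band, with ITGB1 at 4.54, SLC44A4 at 3.89, KRT8 at 11.92, CD44 at 13.33, CFL1 at 5.21 and HLA-B at 6.72. Leaving out clusters on alternate haplotypes kept 1134. Leaving out clusters whose values equal another cluster's on both arrays left 8452 genes, 1546 at background and 2295 low. Whether such values coincide through rounding to 2 decimals was not tested. Over all gene classes CpG-dense windows made up 41.1% of background and 78.6% of low genes. No paired analysis was possible because a single group was described. Signal over background limits every statement on genes under 5, and 1842 protein-coding genes between 5 and 5.92 lay within the range of the background row means. The background rows with a mean above 5 were those whose probes have 3 and 4 G or C bases.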

Other observations

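Olfactory receptor genes above background were few, but several lie near each other. Of 358 measured, 5 were moderate or high, and 4 of these lie in a run of 13 neighbouring genes on chromosome 11, beside the beta-globin genes. The run was chosen after its values were seen. In the order of the RefSeq gene table HBB and HBD read 3.49 and 3.54. OR51B4 read 10.88 and 10.63, OR51B2 10.92 and 10.90, and OR51B6 6.47 and 6.62. OR51M1 was at background at 3.78, OR51Q1 read 6.04 and 6.25, and OR51I1 read 13.99 and 14.57, with a second cluster at 9.74. OR51I2 read 4.87 and 4.76, and OR52D1 7.86 ± 0.21 (SD, n = 2). In all 6 of the 9 olfactory receptor genes of the run were above background, against 13 of 358 measured. The remaining one with a moderate or high signal, OR7G1, had a mean of 10.03. Array signal does not tell a receptor transcript from a longer transcript that crosses the gene, and this was not tested.

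A run of HOX genes, the body-axis regulators, also stood above background and was likewise chosen after its values were seen. HOXB5, HOXB6, HOXB7, HOXB8 and HOXB9, successive measured genes on chromosome 17, read 9.01, 7.50, 9.90, 7.05 and 7.62. HOXB1 (2.97), HOXB2 (3.96) and HOXB13 (4.12), toward the ends of the cluster, were at background. HOXB3 and HOXB4 were not among the 8 HOXB genes measured, so where the run begins between HOXB2 and HOXB5 is not known. The 1 HOXA gene measured was at background. Of 9 HOXC genes 4 were low and none was moderate or high, and all 7 measured HOXD genes were at background. Of 26 taste receptor genes 12 (46.2%) were above background, 9 of them among the 13 on chromosome 12, with TAS2R30 at 9.62 and 9.79 and TAS2R14 at 8.22 and 8.14. Some of these genes lie within other transcripts, and their probes may share signal with near copies.

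Further genes with signal outside their usual tissue were GRIN2B, a glutamate receptor subunit gene of neurons, at 7.76 and 8.16, and GTSF1, a germ cell gene of the piRNA pathway in mouse, at 15.33 and 14.95. GTSF1 was named after its values were seen. Of the 100 genes of highest signal 55 were not protein-coding, 18 of them pseudogenes, 15 small nucleolar RNA genes and 9 microRNA genes of the MIR548 family, whose hairpins have many near copies. By chromosome the share of protein-coding genes above background ran from 43.5% on X (95% Wilson interval 39.7 to 47.3) and 44% on 21 (37.2 to 51.1) to 61.5% on 15 (57.2 to 65.7). On chromosome 11 it was 47.7%, and 54.5% without olfactory receptor genes.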
